A study of Homo sapiens with 12 samples.

Results

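The genes described here encode proteins of the mitochondrial ribosome in human prostate cancer cell lines. A gene was a member if it was annotated as protein-coding, if its name in the DU145 count table was MRPL or MRPS followed by a number, and if its identifier was also in the table of the libraries labelled C4-2. This gave 78 genes, 49 with an MRPL and 29 with an MRPS name, out of 56747 genes in both tables, of which 19848 were protein-coding. The rule used names only and no measured value. By the position of the protein in the human ribosome, 51 members belong to the large subunit and 26 to the small subunit. Of the large subunit members 29 have a counterpart in bacterial ribosomes and 22 do not, and of the small subunit members 16 have one and 10 do not. MRPS18A and MRPS18B, although relatives of the bacterial protein S18, were counted among those without one. The names do not always give the subunit: MRPS30 and MRPS18A are proteins of the large subunit. MRPS36 was kept by its name, although its protein is now known as a subunit of the oxoglutarate dehydrogenase complex.

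Mitochondrial ribosomes translate the few messenger RNAs that mitochondrial DNA still encodes, all for the respiratory chain and ATP synthase. Their ribosomal RNAs come from mitochondrial DNA, whereas every protein of the particle is encoded in the nucleus, made in the cytosol and imported, so its assembly draws on both genomes. Many of these proteins are inherited from the bacterial ribosome and the rest were added in the mitochondrion, where much of the bacterial RNA was lost.

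The series asked how the kinases CDK4 and CDK6 act on STING signalling in prostate cancer cells, with and without RB1. Palbociclib inhibits CDK4 and CDK6, which phosphorylate the retinoblastoma protein RB1. The groups used were C4-2 with palbociclib (3 libraries), C4-2 with dimethyl sulfoxide, the solvent DMSO (2 libraries), DU145 with palbociclib (3 libraries) and DU145 with DMSO (3 libraries). C4-2 is known as a castration-resistant derivative of LNCaP with RB1, and DU145 as a line without functional RB1. The labels give no further genotype or allele for either line, and the sources used here state neither dose nor duration. Whether the libraries of a group were separate cultures is not in the labels. The p-values therefore reflect only how these libraries vary, and that variation may be technical.

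Of 12 labelled libraries, the third DMSO library of C4-2 held only zeros and was left out. Total counts ran from 2608851 to 3489659 in the libraries labelled C4-2 and from 16108999 to 16674393 in those labelled DU145. Since 3 counts is the limit for a count of 0, it stands for at most 0.86 to 1.15 CPM (counts scaled to the library total) in the first set and 0.18 to 0.186 CPM in the second, for counting error only. The libraries labelled C4-2 went against their label in part: 4 of 8 luminal prostate markers, KLK3, KLK2, ACP3 and FOLH1, were at 0 in every library, while 5 mesenchymal and fibroblast markers summed to 22119 to 22360 CPM with palbociclib and 24565 to 24570 CPM with DMSO. In DU145 those 5 markers summed to 337 to 350 CPM with palbociclib and 388 to 404 CPM with DMSO, and 3 of the 8 luminal markers were at 0. The summed level of 4 epithelial markers also moved with treatment, at 409 to 444 CPM with palbociclib against 1044 to 1053 CPM with DMSO in C4-2, and 1675 to 1771 CPM against 2307 to 2500.2 CPM in DU145. Leukocyte markers summed to at most 4.18 CPM in any library. The part of these shifts in the results was not tested. The name C4-2 below stands for the libraries so labelled.

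The promoters are shown for 4 members that fell in C4-2 and rose in DU145, since their responses differed between the lines. They were chosen after their values were seen. Each stretch is the 250 bases before the gene's start in RefSeq (build GRCh38.p14), 5′ to 3′ on the gene's strand, at chr6:44127309-44127558 (minus strand) for MRPL14, chr17:50373185-50373434 (minus) for MRPL27, chr7:42932126-42932375 (plus) for MRPL32 and chr3:179604639-179604888 (minus) for MRPL47. Capitals mark CCGGAAG, the core of ETS factors such as GABP, TGCGCA, the core of nuclear respiratory factor 1 (NRF1), and AANATGGC, the core of YY1, each on either strand.
MRPL14: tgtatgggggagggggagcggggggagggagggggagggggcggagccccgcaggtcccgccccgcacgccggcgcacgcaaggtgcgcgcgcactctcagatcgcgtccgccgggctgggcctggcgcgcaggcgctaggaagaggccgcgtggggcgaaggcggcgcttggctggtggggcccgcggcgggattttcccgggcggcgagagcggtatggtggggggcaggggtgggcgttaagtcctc
MRPL27: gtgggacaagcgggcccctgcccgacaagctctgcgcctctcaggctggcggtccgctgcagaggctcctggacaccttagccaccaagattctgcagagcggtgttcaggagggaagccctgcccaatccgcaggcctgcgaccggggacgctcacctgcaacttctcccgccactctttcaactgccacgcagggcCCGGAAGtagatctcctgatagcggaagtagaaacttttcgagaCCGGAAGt
MRPL32: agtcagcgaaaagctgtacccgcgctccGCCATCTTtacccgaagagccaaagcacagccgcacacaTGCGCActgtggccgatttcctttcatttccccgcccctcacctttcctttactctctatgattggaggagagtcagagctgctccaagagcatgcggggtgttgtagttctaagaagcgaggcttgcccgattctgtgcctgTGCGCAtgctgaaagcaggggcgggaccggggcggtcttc
MRPL47: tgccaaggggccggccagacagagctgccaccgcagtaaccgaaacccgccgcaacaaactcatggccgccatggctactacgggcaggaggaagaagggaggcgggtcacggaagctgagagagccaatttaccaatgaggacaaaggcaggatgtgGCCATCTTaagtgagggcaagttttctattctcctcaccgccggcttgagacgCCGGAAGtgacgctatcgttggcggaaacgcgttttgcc
The MRPL14 stretch holds none of the 3 cores, MRPL27 holds 2 ETS cores, MRPL32 holds 2 NRF1 cores and 1 YY1 core, and MRPL47 holds 1 ETS core and 1 YY1 core. No core of those searched is shared by all 4. The gene models of the DU145 table begin inside these windows, upstream of the RefSeq start.

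The same letters were counted on both strands in the RefSeq windows from 250 bases before to 50 after the start, which were found by symbol for 69 of the 78 members. The ETS core stood in 42% of the members' windows, against 12.8% of 22199 windows of protein-coding genes. Each member had 1 window, whereas the windows of protein-coding genes were not reduced to 1 per gene. The YY1 core stood in 36.2% of the members' windows against 7.37%, and the NRF1 core in 20.3% against 9.88%. TTTGAA, the core of the cell cycle element CHR, was less frequent in the members' windows, at 5.8% (4 windows) against 12.4%. GGGCGG of the SP family was in 60.9% against 56.3%, the E-box CACGTG in 8.7% against 8.34% and the E2F site TTTCCCGC in 1.45% against 1.99%. No motif of the set contains another. The cores were also counted by how members changed. ETS was in 12 of 25 windows of members that fell in C4-2 and 17 of 44 others, and in 14 of 32 that rose in DU145 and 15 of 37 others. The YY1 core was in 10 of 25 that fell in C4-2 and 15 of 44 others, and in 16 of 32 that rose in DU145 and 9 of 37 others. The NRF1 core was in 4 of 25 that fell in C4-2 and 10 of 44 others, and in 7 of 32 that rose in DU145 and 7 of 37 others. Splits of the remaining motifs are not given, and no difference between such groups was tested. These are matches of letters and were not tested as binding sites.

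**Figure D1:**
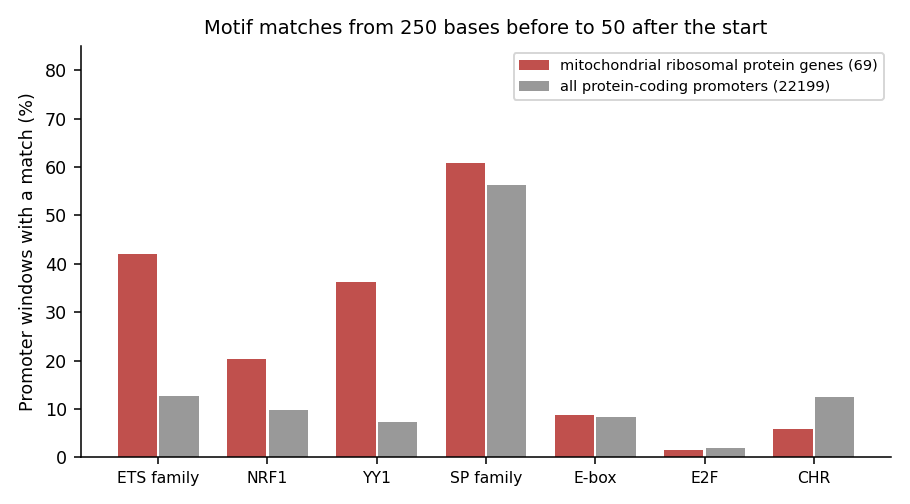
Share of promoter windows (percent, y axis) with at least 1 match to each of 7 motifs (x axis). Shares are over 69 mitochondrial ribosomal protein genes, with 1 window each, and over 22199 windows of protein-coding genes, not reduced to 1 per gene. The ETS, NRF1 and YY1 cores are more frequent in the members' windows (42%, 20.3% and 36.2%) than in all coding windows (12.8%, 9.88% and 7.37%).

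Levels per length are given in TPM, computed here with the gene lengths of the DU145 table. These are counts per length, scaled to the library's total without genes of mitochondrial DNA. They differed widely among members. Transcript abundance, the length used and reads shared with other genes cannot be told apart in them. In DU145, 56 of 78 members lay within 3-fold of the median of 88.7 TPM in DMSO libraries. MRPS34, a small subunit protein found only in mitochondria, had the highest level, with a mean of 868 ± 49.8 TPM over the 6 DU145 libraries (SD). It was followed by MRPL51 with 377 ± 39.6 TPM, MRPL14 with 345 ± 91.9 TPM, MRPL3 with 342 ± 19.7 TPM and MRPL37 with 340.4 ± 21.8 TPM. Only MRPS34 stood clear of its neighbour in this order, since the SDs of the next 4 overlap. The order depended on treatment: MRPL14 had 425 TPM with palbociclib and 264 TPM with DMSO, and in the DMSO libraries MRPL37 (350.2 TPM), MRPL3 (347 TPM), MRPS16 (344 TPM), MRPL51 (342 TPM), MRPL36 (299 TPM) and MRPS18B (282 TPM) were above it. The 3 lowest were MRPL46 with 5.16 ± 0.287 TPM, MRPL38 with 3.21 ± 0.565 TPM and MRPS24, whose bacterial counterpart lies at the entry of the messenger RNA, with 1.19 ± 0.419 TPM. In the DMSO libraries 20 members had a higher mean TPM in C4-2 than in DU145 and 58 a lower one, with medians of 52.9 and 88.7 TPM. The lines were counted in separate tables with different annotation, so a difference of level between them and the counting cannot be told apart.

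In C4-2 the genes of the mitochondrial ribosome were mostly lower with palbociclib. The 78 members summed to 2414, 2431 and 2423 CPM in the palbociclib libraries, against 2778 and 2811 CPM in the DMSO libraries. The groups did not overlap and differed by -13.3%. The large subunit members summed to 1649 ± 14.5 CPM with palbociclib (SD, n = 3) and 1954 ± 43.1 CPM with DMSO (n = 2), a difference of -15.6%. The small subunit members summed to 769.6 ± 16.6 CPM with palbociclib and 834 ± 19.7 CPM with DMSO, a difference of -7.75%. In bulk libraries fewer cells of a type and less RNA per cell cannot be told apart.

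In DU145 the sum moved the other way. The members summed to 5433, 5556 and 5444 CPM with palbociclib, against 4879.5, 4944 and 4932 CPM with DMSO, a difference of 11.4%. Large subunit members summed to 3487 ± 65.8 CPM with palbociclib and 3065 ± 27.9 CPM with DMSO (SD, n = 3 each), and small subunit members to 1968 ± 3.81 CPM and 1834 ± 11.4 CPM. The difference was 13.8% for the large and 7.34% for the small subunit, with no overlap between groups in either. The share of counts from genes of mitochondrial DNA moved the other way in these libraries, at 3.07 to 3.37% with palbociclib and 4.40 to 4.92% with DMSO. With those genes left out of the totals the members' sum still differed by 9.68%.

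**Figure D2:**
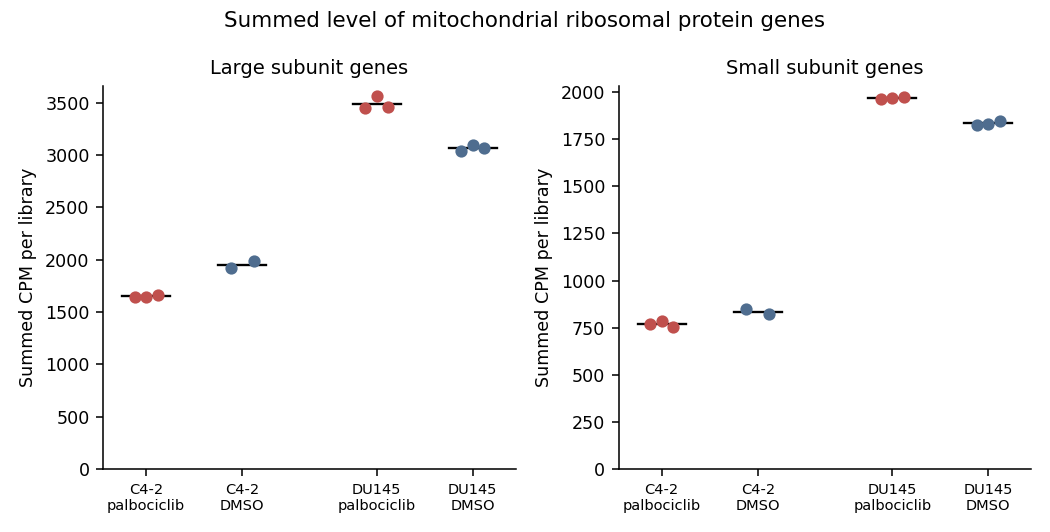
Summed CPM per library (y axis, from 0) of the large subunit members (left) and small subunit members (right), by line and treatment (x axis). Points are libraries and bars are group means. In C4-2 the 3 palbociclib libraries lie below both DMSO libraries, and in DU145 the 3 palbociclib libraries lie above all 3 DMSO libraries.

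Single genes were tested with edgeR's quasi-likelihood test over all genes of a line, and a gene was called higher or lower at a Benjamini-Hochberg adjusted p of at most 0.05. In C4-2, 74 members could be tested: 30 fell, 1 rose and 43 were not called. Over all 11943 genes tested, 26.6% were called lower and 25.2% higher (51.8% in either direction), so 40.5% of the members being lower was above the background and 1.35% being higher was far below it. The median log2 fold change was -0.26 for the members and 0.001 for all genes. The palbociclib libraries all lay below the DMSO libraries for 38 members (30.3% of all genes) and above them for 5 (35.8% of all genes). With DESeq2 in place of edgeR 15 of the 74 members fell and none rose in C4-2, while of the 11943 genes 1993 fell and 1800 rose. By these counts the members' excess of falls over all genes was smaller than with edgeR.

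Of the 74 members tested in C4-2, 11 (14.9%) fell by at least 1.5-fold, close to the 12.2% of all genes called lower at that size. MRPL12 encodes the protein of the flexible stalk that recruits translation factors and is also known to bind the mitochondrial RNA polymerase. It had 6.92, 8.05 and 5.33 CPM with palbociclib and 11.2 and 12.3 CPM with DMSO in C4-2. The groups did not overlap, and its log2 fold change of -0.86 ± 0.25 (SE) was the largest fall (adjusted p = 0.00403), although with DESeq2 the call was lost (adjusted p = 0.0903). MRPL10 and MRPL11, its partners at the base of the stalk, fell too, by 0.43 and 0.65 on the log2 scale, and with DESeq2 MRPL11 was the only stalk gene still called.

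MRPL39, a large subunit protein that resembles threonyl-tRNA synthetase, had 21.1, 23.8 and 31.4 CPM with palbociclib and 42.1 and 42.1 CPM with DMSO in C4-2. Its log2 fold change was -0.76 ± 0.13 (adjusted p = 9.23e-06). MRPS26, a small subunit protein without a bacterial counterpart, had 16.6, 16.9 and 15.7 CPM with palbociclib and 24.4 and 28.5 CPM with DMSO, a log2 fold change of -0.73 ± 0.16 (adjusted p = 0.000178). For both genes every palbociclib library of C4-2 was below both DMSO libraries. MRPL58, a peptidyl-tRNA hydrolase built into the large subunit that frees stalled ribosomes, had 10, 13.4 and 16 CPM with palbociclib and 21.2 and 20.6 CPM with DMSO. It fell by 0.70 ± 0.19 (adjusted p = 0.0018), a call that DESeq2 did not give (adjusted p = 0.0553).

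MRPS16 was the only member that rose in C4-2. This small subunit protein has a bacterial counterpart, and defects in it are known to impair the respiratory chain. It had 89.3, 110.0 and 87.9 CPM with palbociclib and 78.2 and 76.9 CPM with DMSO, a log2 fold change of 0.24 ± 0.09 (adjusted p = 0.0198). The rise was not called without palbociclib library 2 (adjusted p = 0.159), without DMSO library 1 (0.0601) or 2 (0.0796), or with DESeq2 (0.138). In DU145 its log2 fold change was 0.01.

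The 4 members that could not be tested in C4-2 had counts at or near 0 there. MRPL53, a stalk protein of the large subunit, had no count in any of the 5 libraries, and MRPS18B had 2 counts in 1 palbociclib library and none elsewhere. MRPL38 had 3 to 6 counts and MRPS24 had 3 to 8 counts per library. In DU145 the same MRPS18B had 140.2, 137 and 140.2 CPM with palbociclib and 117, 129.5 and 129 CPM with DMSO, so its level differed between the tables far beyond the spread within either.

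In DU145 all 78 members were tested, and 34 rose, 12 fell and 32 were not called. Over all 15361 genes tested, 28.8% were called higher and 29.2% lower (58.1% in either direction), so the members' 43.6% higher was above and their 15.4% lower below the background. The median log2 fold change was 0.175 for the members and -0.01 for all genes. All palbociclib libraries lay above all DMSO libraries for 36 members (29.4% of all genes) and below them for 18 (33.4% of all genes). At 1.5-fold or more 8 of 78 members rose (10.3%) and 3 fell (3.85%), against 13.5% and 15.6% of all genes.

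The largest rises in DU145 were in large subunit proteins that bacteria lack. MRPL50 had 42.6, 48.3 and 39.3 CPM with palbociclib and 22, 22.8 and 19 CPM with DMSO, a log2 fold change of 1.05 ± 0.10 (adjusted p = 6.85e-08). MRPS30, despite its name a neighbour of MRPL37 in the large subunit, had 298, 291 and 272 CPM with palbociclib and 149.7, 153 and 156 CPM with DMSO, a change of 0.93 ± 0.06 (adjusted p = 1.43e-09). The groups of both genes were far apart, with the lowest palbociclib library well above the highest DMSO library.

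MRPL49 rose to 169.7, 171 and 175 CPM with palbociclib, against 93.5, 90.2 and 98.7 CPM with DMSO (log2 fold change 0.89 ± 0.07, adjusted p = 4.84e-09). MRPL44, which carries an RNase III fold and sits near the exit of the nascent chain, had 38.5, 39.7 and 37.8 CPM with palbociclib and 23.4, 22.2 and 18.6 CPM with DMSO (0.88 ± 0.09, adjusted p = 3.34e-07). None of these 4 genes was called in C4-2, where the log2 fold changes were 0.17 for MRPL50, -0.04 for MRPS30, -0.20 for MRPL49 and -0.02 for MRPL44. MRPL53 was low in DU145 as well, with 9.48, 6.55 and 6.18 CPM with palbociclib and 4.84, 3.28 and 3.72 CPM with DMSO, but the groups did not overlap and it rose by 0.93 ± 0.20 (adjusted p = 0.000526). Of its exon bases 45.2% lie over CCDC142 on the same strand, which also rose in DU145, averaging 34.7 CPM (palbociclib) and 21.4 CPM (DMSO), a log2 fold change of 0.72.

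The falls in DU145 were fewer. MRPL1, which forms the mobile arm of the large subunit where spent transfer RNA leaves in bacteria, had 6.22, 6.00 and 4.08 CPM with palbociclib and 11.6, 14.2 and 10.5 CPM with DMSO. Its log2 fold change of -1.13 ± 0.16 was the largest of the set in DU145 (adjusted p = 1.11e-05). In C4-2 the same gene had 22.8, 28.7 and 25.2 CPM with palbociclib and 24.1 and 25.9 CPM with DMSO, groups that overlap.

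MRPS27, a pentatricopeptide repeat protein of the small subunit, had 70.9, 69.6 and 68.6 CPM with palbociclib and 127, 113 and 108 CPM with DMSO in DU145, a log2 fold change of -0.71 ± 0.07 (adjusted p = 2.3e-07). It also fell in C4-2, with 33.6, 32.6 and 38.2 CPM with palbociclib and 48.4 and 50.4 CPM with DMSO (-0.54 ± 0.12, adjusted p = 0.000117). MRPS27 was thus lower in every palbociclib library of both lines, and the difference between the lines was not called (interaction -0.13 ± 0.14, adjusted p = 0.552). MRPL35, a large subunit protein with a bacterial counterpart, fell in DU145 by 0.48 ± 0.09 (adjusted p = 0.000208) and in C4-2 by 0.28 ± 0.12 (adjusted p = 0.0463). The C4-2 call of MRPL35 was lost without palbociclib library 1 (0.254) or 3 (0.0506), without DMSO library 1 (0.0833) or 2 (0.16), with DESeq2 (0.274) and with library totals (0.102).

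MRPL24, whose bacterial counterpart starts the assembly of the large subunit, had 36.6, 38.1 and 35.7 CPM with palbociclib and 55.4, 64.7 and 55.3 CPM with DMSO in DU145 (log2 fold change -0.64 ± 0.08, adjusted p = 3.17e-06). MRPL16, which lies near the site where aminoacyl-tRNA is bound, had 54.4, 56.9 and 56.1 CPM with palbociclib and 86.8, 88.1 and 79.0 CPM with DMSO (-0.58 ± 0.07, adjusted p = 2.18e-06). MRPS33, a small subunit protein without a bacterial counterpart, had 17.1, 18.7 and 15.5 CPM with palbociclib and 27.9, 25.6 and 22.3 CPM with DMSO (-0.54 ± 0.11, adjusted p = 0.000311). None of the 3 overlapped between groups in DU145. In C4-2 none of them was called, with log2 fold changes of -0.17, -0.33 and -0.08 for MRPL24, MRPL16 and MRPS33. MRPL24 was called lower in C4-2 without DMSO library 1 (-0.38, adjusted p = 0.00923), and MRPL16 without palbociclib library 3 (-0.44, 0.0232) or DMSO library 1 (-0.45, 0.0339).

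**Figure D3:**
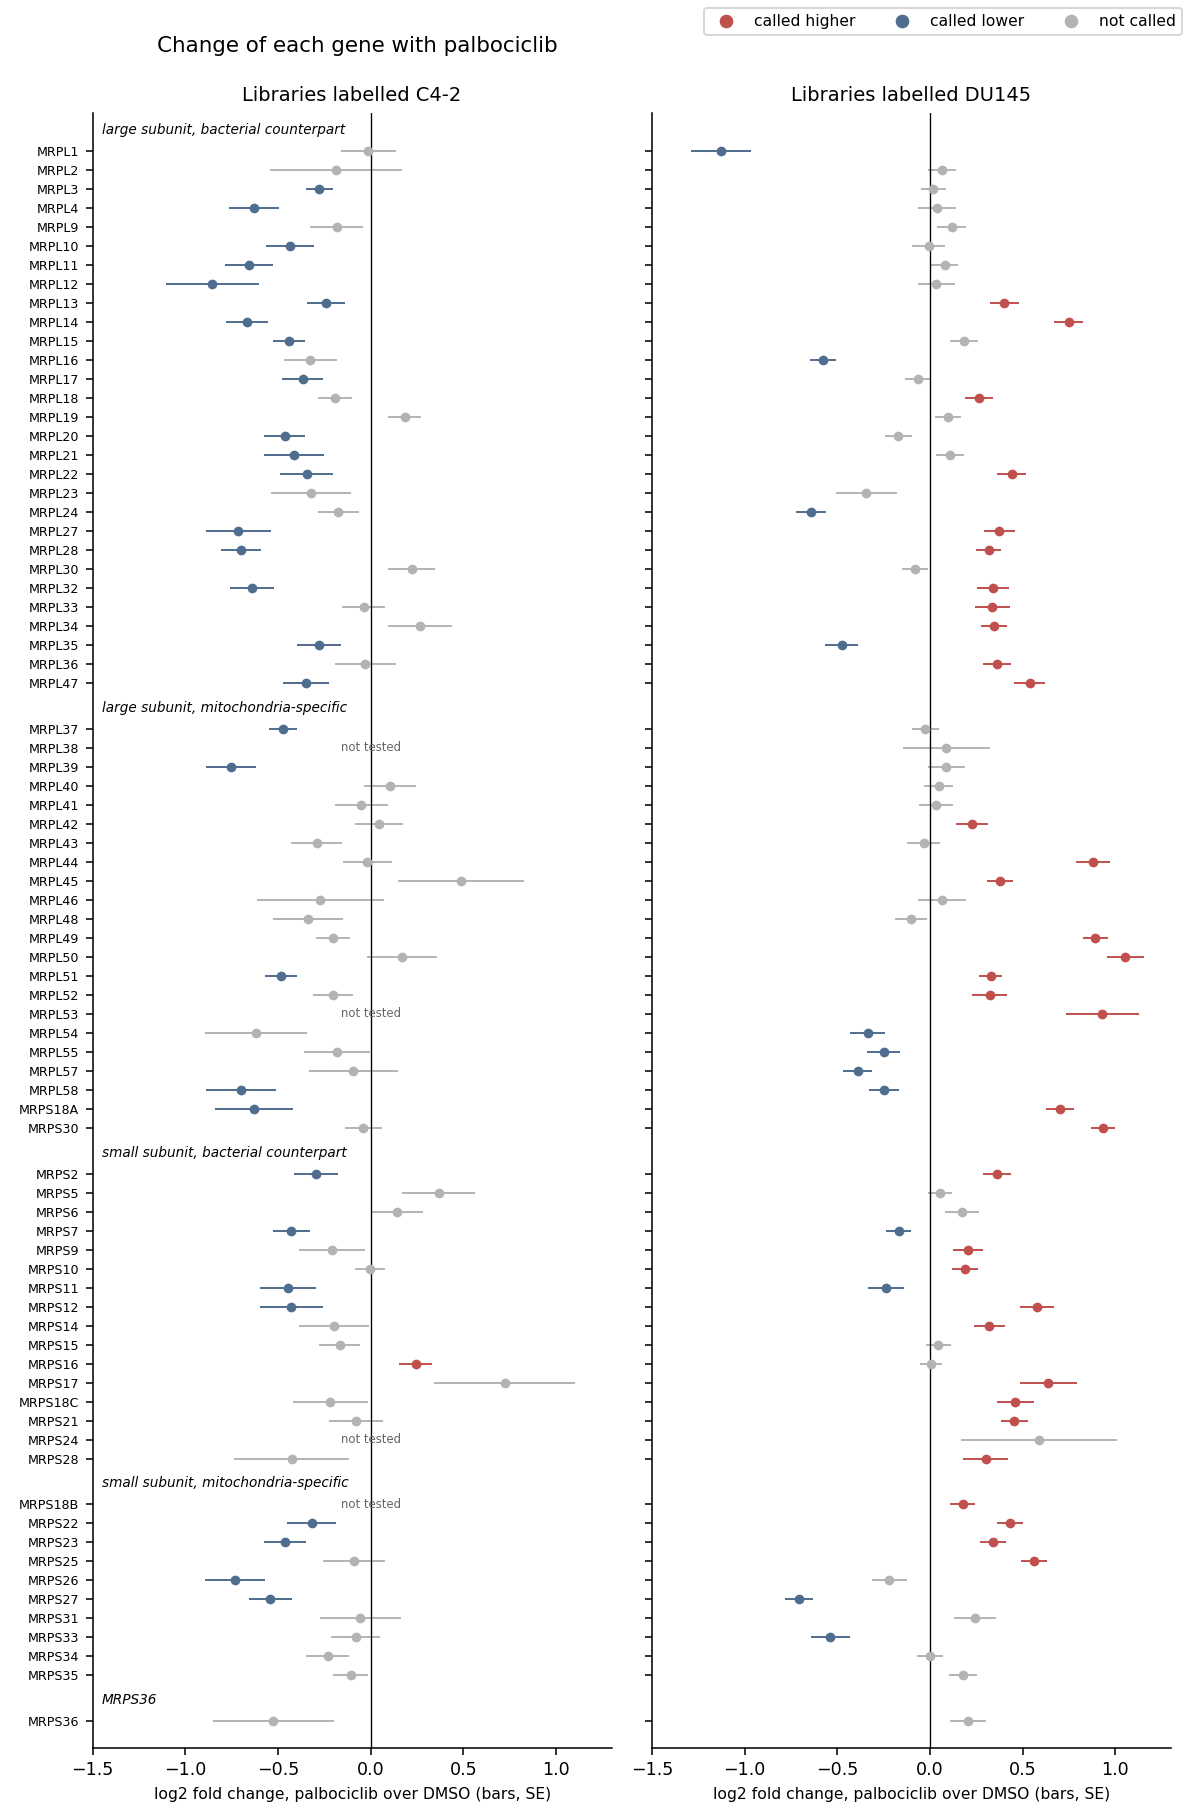
Log2 fold change, palbociclib over DMSO (x axis), of every member (y axis, by subunit and by presence of a bacterial counterpart) in C4-2 (left) and DU145 (right). Points are edgeR estimates with their SE, red where called higher, blue where called lower, grey where not called. In C4-2, 30 members are blue and 1 is red, and in DU145, 34 are red and 12 are blue.

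Whether the response differed between the lines was tested for each gene by the interaction of line and treatment, which is the log2 fold change in DU145 less that in C4-2. It was higher in DU145 for 34 of 78 members and lower for 2, against 18.4% and 15.0% of 18139 genes (33.4% in either direction). The fit of C4-2 alone tested 11943 genes, so part of these 18139 did not pass the count filter there, whereas 74 members did. The median SE of the interaction was 0.30 for all genes and 0.18 for the members, so the shares were not taken at equal precision. MRPL53 and MRPS18B, at or near 0 in C4-2, had no usable SE. The members' median interaction was 0.39, and that of all genes was -0.02. Of the 34 members 13 both fell in C4-2 and rose in DU145, 11 were called only in DU145 and 10 were called only in C4-2. The 13 were MRPL13, MRPL14, MRPL22, MRPL27, MRPL28, MRPL32, MRPL47, MRPL51, MRPS2, MRPS12, MRPS18A, MRPS22 and MRPS23. Of their falls in C4-2, 6 were also called with DESeq2, 8 with library totals, 7 without palbociclib library 2 and 8 without DMSO library 2, whereas all 13 interactions were called under every alternative run. No member rose in C4-2 and fell in DU145, and 5 fell in both lines (MRPL35, MRPL58, MRPS7, MRPS11 and MRPS27). With DESeq2, MRPL35, MRPL58 and MRPS11 were not called in C4-2, and MRPS7 and MRPS11 were not called in DU145, which leaves MRPS27. The DU145 call of MRPS7 was also lost without any 1 library of that line, and that of MRPS11 without palbociclib library 1 or 2 or DMSO library 2 or 3, and both with DESeq2's size factors in edgeR. Pairs of calls were not counted over all genes, of which 26.6% were called lower in C4-2 and 28.8% higher and 29.2% lower in DU145. The counts of members by pair of calls therefore have no background beside them. The line and its table, depth and counting cannot be told apart, although each log2 fold change was taken within 1 table.

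MRPL14 had the largest interaction. Its protein lies where the subunits meet and is bound by the factor MALSU1 that keeps them apart during assembly. In C4-2 it had 31.1, 37.6 and 37.3 CPM with palbociclib and 53.9 and 55.0 CPM with DMSO, a log2 fold change of -0.67 ± 0.11 (adjusted p = 3.33e-06). In DU145 it had 87.3, 102 and 105 CPM with palbociclib and 60.8, 58.9 and 58.7 CPM with DMSO, a change of 0.75 ± 0.08 (adjusted p = 3.34e-07). The palbociclib libraries were thus all lower in C4-2 and all higher in DU145, and the difference of the responses was 1.45 ± 0.15 (adjusted p = 2.15e-09). Its promoter, printed above, held none of the ETS, NRF1 and YY1 cores.

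MRPS18A is 1 of 3 human relatives of the bacterial protein S18 and the only one built into the large subunit. It had 9, 9.97 and 12.1 CPM with palbociclib and 14.6 and 16.9 CPM with DMSO in C4-2, and 58.5, 57.4 and 58.7 CPM with palbociclib and 36.8, 35.8 and 36.6 CPM with DMSO in DU145. The log2 fold changes were -0.63 ± 0.21 (adjusted p = 0.0109) and 0.70 ± 0.07 (adjusted p = 3.49e-07), and the interaction was 1.37 ± 0.21 (adjusted p = 3.87e-06). The call in C4-2 was lost without palbociclib library 1 (0.0524), without DMSO library 2 (0.089) or with DESeq2 (0.133), but the interaction was called under every alternative tried. The other relatives sit in the small subunit. MRPS18C rose in DU145 (0.46 ± 0.10, adjusted p = 0.000706) and was not called in C4-2 (-0.22 ± 0.20), and its interaction of 0.71 was lost without palbociclib library 3 (adjusted p = 0.0622) or DMSO library 1 (0.0941) of C4-2 and with the replicate block (0.0527). MRPS18B rose by 0.18 ± 0.07 in DU145 (adjusted p = 0.0325), a call that was lost without palbociclib library 1 (0.0683) or DMSO library 1 (0.222) or 2 (0.0562) and with library totals (0.0547).

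MRPL27, whose bacterial counterpart reaches into the site where peptide bonds form, had 13.2, 22.2 and 14.5 CPM with palbociclib and 25.2 and 26.9 CPM with DMSO in C4-2. In DU145 it had 40.6, 43.5 and 45.4 CPM with palbociclib and 33.1, 32.9 and 35.6 CPM with DMSO. It fell by 0.71 ± 0.17 in C4-2 (adjusted p = 0.000677) and rose by 0.37 ± 0.08 in DU145 (adjusted p = 0.000918), with an interaction of 1.12 ± 0.20 (adjusted p = 4.33e-05). The groups did not overlap in either line. MRPL28, a large subunit protein with a bacterial counterpart, had 36.7, 40.6 and 44.1 CPM with palbociclib and 61.3 and 67.0 CPM with DMSO in C4-2, and 148, 157 and 161 CPM against 124, 124 and 132 CPM in DU145. Its interaction was 1.05 ± 0.13 (adjusted p = 8.61e-08), from log2 fold changes of -0.70 in C4-2 and 0.32 in DU145.

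MRPL49 and MRPS30 had interactions of 1.13 ± 0.12 (adjusted p = 4.05e-09) and 1.01 ± 0.12 (4.15e-08). Both genes rose in DU145 and were not called in C4-2. MRPS12, the protein next to the decoding centre, rose in DU145 by 0.58 ± 0.09 and fell in C4-2 by 0.43 ± 0.17 (adjusted p = 0.0335), with an interaction of 1.04 ± 0.21 (adjusted p = 0.000204). Its fall in C4-2 was lost without palbociclib library 2 (0.115) or 3 (0.148), without DMSO library 2 (0.19), with DESeq2 (0.235) and with library totals (0.0604). For MRPL1 the interaction was -1.08 ± 0.24 (adjusted p = 0.000555). That of MRPL24, -0.43 ± 0.15 (adjusted p = 0.0287), was lost without palbociclib library 1 (0.0942) or DMSO library 1 (0.37) of C4-2 or DMSO library 2 of DU145 (0.0683).

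**Figure D4:**
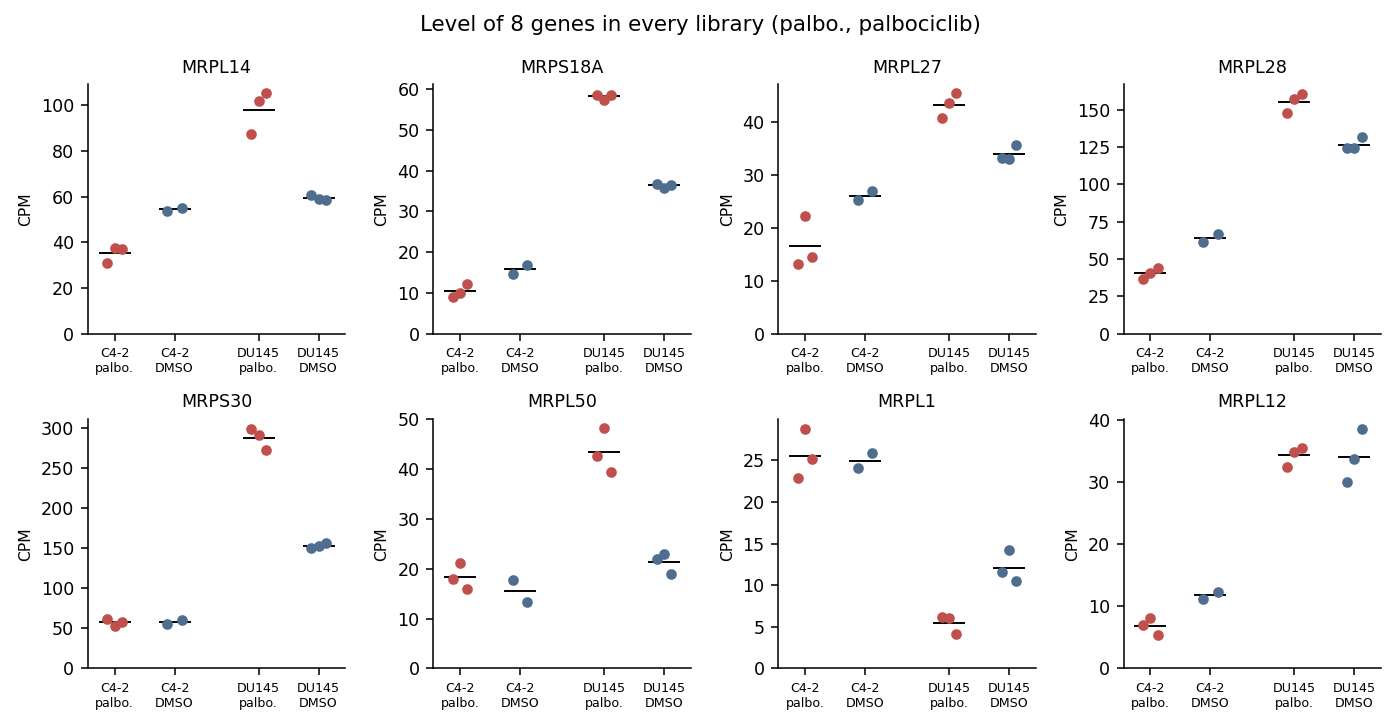
CPM in every library (y axis, from 0) of 8 members by line and treatment (x axis), with points for libraries and bars for group means. For MRPL14, MRPS18A, MRPL27 and MRPL28 the palbociclib libraries lie below the DMSO libraries in C4-2 and above them in DU145, MRPS30 and MRPL50 are higher and MRPL1 is lower with palbociclib in DU145 while their groups overlap in C4-2, and MRPL12 is lower in C4-2 while its groups overlap in DU145.

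**Figure D5:**
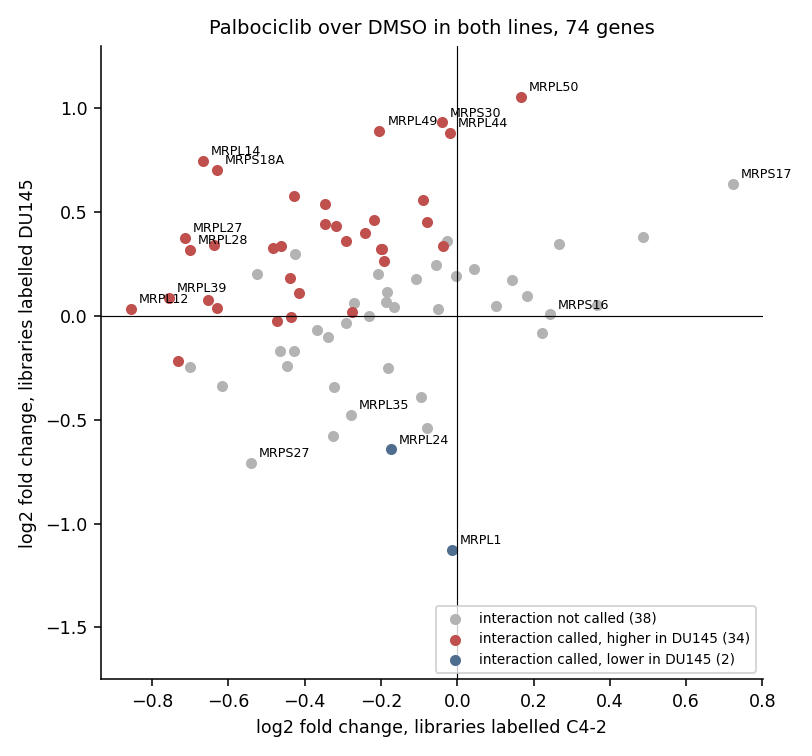
Log2 fold change, palbociclib over DMSO, in C4-2 (x axis) and DU145 (y axis) of the 74 members tested in both lines, coloured by the call of the interaction. The upper left area, below 0 in C4-2 and above 0 in DU145, holds 42 members, and the opposite area holds 1.

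Across the 74 members tested in both lines the log2 fold changes were only weakly related (Pearson's r = 0.14, Spearman's rho = 0.14), as a description over genes that share their libraries. By sign alone 42 members were below 0 in C4-2 and above 0 in DU145, 21 were below 0 in both, 10 above 0 in both, and 1 was above 0 in C4-2 and below 0 in DU145. The same pairs of signs were not counted over all genes. MRPL14 and MRPS18A were among the larger changes in both lines, whereas MRPL12 and MRPL39, with the largest falls in C4-2, had log2 fold changes of 0.03 and 0.09 in DU145, and their interactions were 0.925 and 0.88. The interaction of MRPL12 was lost without DMSO library 2 of C4-2 (adjusted p = 0.0506).

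By subunit, 22 of 49 large subunit members tested in C4-2 fell (44.9%) and none rose. Of the 24 small subunit members 8 fell (33.3%) and 1 rose, against 26.6% lower and 25.2% higher of all genes. In DU145, 21 of 51 large subunit members rose (41.2%) and 8 fell (15.7%). Of the 26 small subunit members 13 rose (50%) and 4 fell (15.4%), against 28.8% higher and 29.2% lower of all genes. Large subunit proteins with a bacterial counterpart fell in 17 of 29 cases in C4-2 (58.6%, median log2 fold change -0.33). Those without one fell in 5 of 20 cases (25%, median -0.20), near the 26.6% of all genes. In DU145 the corresponding counts were 11 of 29 higher (37.9%) and 4 lower (13.8%), and 10 of 22 higher (45.5%) and 4 lower (18.2%). The medians in DU145 were 0.10 and 0.09. With DESeq2 11 of the large and 4 of the small subunit falls in C4-2 were called, among them 8 of the 17 with a bacterial counterpart and 3 of the 5 without one in the large subunit. These differences between classes of members were not tested.

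The stalk, the central protuberance and the surroundings of the peptide exit tunnel were also described apart. Of the stalk genes MRPL10, MRPL11, MRPL12 and MRPL54, the first 3 fell in C4-2, and the median of the 4 was -0.64. In DU145 the median of the 5 stalk genes was 0.03, with MRPL53 higher and MRPL54 lower. Around the exit tunnel 4 of 8 genes fell in C4-2 (MRPL17, MRPL22, MRPL39 and MRPL47), and 4 rose in DU145 (MRPL22, MRPL44, MRPL45 and MRPL47) while MRPL24 fell. Of those falls in C4-2 only MRPL39 was called with DESeq2 or without DMSO library 2, and MRPL17 and MRPL39 without palbociclib library 2. MRPL45, which anchors the ribosome to the inner membrane, rose in DU145 to 90.4, 100.1 and 89.4 CPM with palbociclib, against 74.9, 74.4 and 69.6 CPM with DMSO (log2 fold change 0.38 ± 0.07, adjusted p = 0.000199). In C4-2 it was low. It had 8.65, 9.58 and 3.85 CPM with palbociclib and 5.16 and 4.64 CPM with DMSO, and it was not called, but it was called higher without palbociclib library 3 (0.84, adjusted p = 0.0267). In the central protuberance 1 of 5 tested genes, MRPL27, fell in C4-2 (20%), and 2 of 6, MRPL18 and MRPL27, rose in DU145 (33.3%). In C4-2 75% of the tested stalk genes and 50% of the exit tunnel genes fell, and in DU145 20% and 50% rose. Of all genes 26.6% fell in C4-2 and 28.8% rose in DU145, and these small groups were not tested against them.

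MRPS34, the member with the highest TPM in both treatments of DU145, was called in neither line. It had 216, 218 and 239.8 CPM with palbociclib and 217, 222 and 246 CPM with DMSO in DU145, and its log2 fold change was -0.23 ± 0.12 in C4-2 (adjusted p = 0.0878). MRPL3, a protein that reaches towards the catalytic centre in bacteria, and MRPL37 had log2 fold changes of 0.02 and -0.03 in DU145 and fell in C4-2 by 0.28 ± 0.07 (adjusted p = 0.00147) and 0.47 ± 0.07 (adjusted p = 9.27e-07). The call of MRPL3 in C4-2 was lost without DMSO library 1 (0.17) and with DESeq2 (0.0513), and its interaction of 0.32 was also lost without that library (0.297). That interaction was lost too without palbociclib library 2 of C4-2 (0.0501) or of DU145 (0.0608), with DESeq2 (0.0517) and with library totals (0.129). MRPL37 had an interaction of 0.48 ± 0.11 (adjusted p = 0.000982), and that of MRPL44 was 0.93 ± 0.17 (adjusted p = 6.86e-05). MRPL50 had 0.92 ± 0.23 (adjusted p = 0.00172), which was lost without DMSO library 1 of C4-2 (0.102). MRPS26 was not called in DU145 (-0.22 ± 0.09, adjusted p = 0.051) but was called lower there without palbociclib library 3 (0.00932) or DMSO library 1 (0.0393) and with the replicate block (0.00351). Its interaction of 0.55 was lost under several alternatives, among them library totals (0.0776) and the loss of DMSO library 2 of C4-2 (0.17).

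MRPL58 fell in DU145 too, by 0.25 ± 0.08 (adjusted p = 0.0166), a call lost without palbociclib library 3 (0.0542) or DMSO library 1 (0.0518). MRPS36, the subunit of oxoglutarate dehydrogenase, had 3.81, 5.37 and 4.44 CPM with palbociclib and 6.59 and 5.97 CPM with DMSO in C4-2, and 24.3, 23.0 and 20.6 CPM with palbociclib and 19.7, 19.9 and 20.4 CPM with DMSO in DU145. The groups did not overlap in either line, but it was called in neither (adjusted p = 0.176 and 0.082). In DU145 it was called higher without palbociclib library 3 (0.0268) and with the replicate block (0.0435).

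Reads of some members can be shared with other genes. The C4-2 table was counted without strand, and in GENCODE 29 (GRCh38) 41 members have exon bases over another gene, 14 of them over more than 20% of their length. MRPL51 has 31.3% of its exon bases over NCAPD2 on the other strand, a gene of mitotic chromosome condensation. MRPL51 had 73.7, 63.2 and 68.1 CPM with palbociclib and 97.7 and 86.9 CPM with DMSO in C4-2 (log2 fold change -0.48), while NCAPD2 averaged 139 CPM with palbociclib and 348 CPM with DMSO (-1.37). In DU145 MRPL51 had a change of 0.33 and NCAPD2 one of 0.22, and the interaction of MRPL51 was 0.84 (adjusted p = 5.42e-07). Its own change and that of NCAPD2 cannot be told apart where the 2 overlap. MRPL12 overlaps AC139530.2 over 68.2% of its exon bases, a gene at 0 in C4-2, MRPS18A overlaps RSPH9 over 47% of its own, which averaged 0.358 CPM (palbociclib) and 0.143 CPM (DMSO) in C4-2, and MRPS18C overlaps ABRAXAS1 over 40.2%. Of the 37 members with no such base 36 were tested in C4-2, where 13 fell and none rose (median -0.22), a share of 36.1% lower against 26.6% of all genes. In DU145 13 of the 37 rose (35.1%, against 28.8% of all genes) and 9 fell (24.3%, against 29.2%), with a median log2 fold change of 0.09. Of the 14 members with over 20% overlap, 8 rose in DU145 (57.1%) and none fell (median 0.33). In C4-2 4 of the 11 tested fell (36.4%) and none rose (median -0.29). Names of 75 pseudogenes stand beside the members in the DU145 table, for 34 of the members. The 42 tested members with no named pseudogene had 20 falls (47.6%) and no rise in C4-2 (median -0.32). Of the 44 in DU145 20 rose (45.5%) and 8 fell (18.2%).

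Head-to-head neighbours share a stretch of DNA between 2 starts. Of the members 21.8% start within 1000 bases of an opposite-strand protein-coding gene that points away, against 7.37% of 19938 protein-coding genes. MRPL47 and NDUFB5, a subunit of respiratory complex I, start 36 bases apart in GENCODE 29, and they moved in opposite directions in both lines. NDUFB5 averaged 18.7 CPM with palbociclib and 10.3 CPM with DMSO in C4-2 (log2 fold change 0.81, adjusted p = 0.00101), where MRPL47 fell by 0.35, and 54.5 CPM with palbociclib and 72.9 CPM with DMSO in DU145 (-0.40, adjusted p = 0.000113), where MRPL47 rose by 0.54. The fall of MRPL47 in C4-2 was not called with DESeq2, without palbociclib library 2 or without DMSO library 2. MRPL27 starts 6 bases from EME1, a subunit of a DNA repair nuclease, which fell in both lines (-0.61 in C4-2 and -0.71 in DU145), whereas MRPL27 fell in C4-2 and rose in DU145. Among the 14 pairs tested on both sides in C4-2, 1 had both genes called in the same direction and 1 in opposite directions. Among the 15 in DU145, 1 was called in the same direction and 2 in opposite directions. MRPL46 and MRPS11, 34 bases apart, are partners of each other and are counted from both sides: MRPS11 was called lower in both lines, calls that DESeq2 did not give, and MRPL46 was called in neither. The C4-2 call of MRPS11 was also lost without palbociclib library 1 or 2.

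Subunits whose names do not begin with MRPL or MRPS were read from a list of 6 genes, which also holds the insertase OXA1L. In C4-2 GADD45GIP1, a large subunit protein at the exit tunnel, averaged 29 ± 3.6 CPM with palbociclib and 51.4 ± 9.42 CPM with DMSO and fell by 0.87 (adjusted p = 2.47e-07). AURKAIP1 and the pentatricopeptide repeat protein PTCD3, both of the small subunit, fell by 0.62 and 0.41, and DAP3, CHCHD1 and OXA1L, the insertase that receives nascent chains, were not called (-0.11, 0.03 and -0.11). In DU145 CHCHD1, OXA1L and DAP3 rose (log2 fold changes 0.31, 0.23 and 0.20), and the other 3 were not called, with GADD45GIP1 at -0.10, AURKAIP1 at 0.03 and PTCD3 at 0.06. PTCD3 was called higher in DU145 without palbociclib library 3 (adjusted p = 0.038). The interaction was called for 5 of the 6, all higher in DU145, and for CHCHD1 it was not (0.32 ± 0.19).

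Factors that assemble the mitochondrial ribosome and process its RNA included genes called in each direction in both lines. Of 37 assembly and rRNA processing genes tested in C4-2, 13 fell (35.1%, against 26.6% of all genes) and 5 rose (13.5% against 25.2%), with a median log2 fold change of -0.19. With DESeq2 7 fell and 1 rose, and without DMSO library 2 10 fell and 2 rose. C1QBP, a matrix protein needed for mitochondrial translation, fell by 0.69 (adjusted p = 3.23e-10), FASTKD2, which binds the large ribosomal RNA, by 0.64, DHX30, an RNA helicase, by 0.63 and ELAC2, which cuts the 3′ ends of transfer RNA, by 0.63. In DU145, 17 of 40 rose (42.5%, against 28.8% of all genes) and 5 fell (12.5% against 29.2%), with a median of 0.16. MRM3 and MRM1, methyltransferases of the large ribosomal RNA, rose by 0.95 and 0.83, METTL15, a methyltransferase of the small ribosomal RNA, by 0.58 and the GTPase MTG2 by 0.58. In C4-2 METTL15 was also above 0, at 0.82, and its interaction of -0.205 was not called. MRM3 and MTG2 had -0.19 and -0.03 there, and MRM1 was not tested. The genes named for C4-2 had the smallest adjusted p. The log2 fold changes of the list there ran from -0.69 to 1.35, the highest being that of YBEY.

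Translation factors were called at shares near those of all genes. Of 16 tested in C4-2, 4 fell (25%) and 3 rose (18.8%), and of 17 in DU145, 6 rose and 6 fell (35.3% each). The elongation factors TUFM and GFM1 fell in C4-2 by 0.49 and 0.36, and GUF1 fell by 0.34 in C4-2 and 0.73 in DU145. The C4-2 call of GUF1 was lost without DMSO library 1 (adjusted p = 0.112) or with DESeq2 (0.131). MTRF1L, a release factor, rose in C4-2 by 0.60, a call lost without DMSO library 1 (0.0798) or with DESeq2 (0.107). In DU145 the recycling factor MRRF rose by 0.55 and GFM2, which acts with it, fell by 0.66, while GATC, a subunit of the enzyme that makes glutaminyl-tRNA, rose by 0.65.

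The genes that transcribe and maintain mitochondrial DNA were read from a list of 11, and nuclear transcription factors and coactivators of mitochondrial genes from a list of 9, of which NRF1, GABPA, GABPB1 and YY1 belong to factors of the cores counted above. In C4-2 POLRMT, the mitochondrial RNA polymerase, and TFAM, which packages mitochondrial DNA, fell by 0.56 and 0.475. POLG, the polymerase of that DNA, and MGME1, a nuclease, fell by 0.46 and 0.52. In all 5 of the 11 fell (45.5%) and 1 rose (9.09%), against 26.6% and 25.2% of all genes. In DU145, 6 of 11 rose (54.5%) and 1 fell (9.09%), against 28.8% and 29.2% of all genes. The helicase TWNK rose by 0.90, TFB2M by 0.76, MGME1 by 0.65, and MTERF2 fell by 0.69. Of the nuclear factors PPRC1, a coactivator of the PGC-1 family, fell to 50.3 ± 2.25 CPM with palbociclib, against 78.5 ± 10.2 CPM with DMSO in C4-2 (log2 fold change -0.695, adjusted p = 8.95e-08), and rose to 119 ± 1.91 CPM with palbociclib, against 63.7 ± 2.20 CPM with DMSO in DU145 (0.93, adjusted p = 3.75e-09). Its interaction was 1.66 ± 0.13 (adjusted p = 4.04e-12). NRF1 and GABPB1, a subunit of GABP, fell in C4-2 by 0.56 and 0.50, and YY1 rose by 0.26. The call of NRF1 was lost with DESeq2 (adjusted p = 0.0758). In all 3 of 8 nuclear factors fell in C4-2 (37.5%). In DU145 7 of 9 rose (77.8%) with none lower, among them PPARGC1A (1.11), MYC (0.47) and PPARGC1B (0.36).

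The ribosomal RNAs that these proteins bind are encoded in mitochondrial DNA and were measured only in DU145, since the C4-2 table lists these genes at 0. MT-RNR1, the RNA of the small subunit, had 339.9, 340.03 and 262 CPM with palbociclib and 431, 455 and 394 CPM with DMSO. MT-RNR2, that of the large subunit, had 3318, 3078 and 2569.9 CPM with palbociclib and 5888, 6227 and 5857 CPM with DMSO. Both groups were apart, and the log2 fold changes were -0.42 ± 0.08 (adjusted p = 0.000384) and -0.98 ± 0.07 (adjusted p = 2.53e-09). In DU145 the counts of both RNAs were thus lower with palbociclib in the same libraries in which 34 members were higher, 12 lower and 32 not called. Whether the preparation of the libraries affected the counts of these RNAs was not tested. Of the 13 protein genes of mitochondrial DNA 10 fell in DU145 (76.9%, against 29.2% of all genes) and none rose. MT-CO1 averaged 7569.8 ± 113 CPM (palbociclib) and 12507 ± 737 CPM (DMSO) (-0.70, adjusted p = 1.42e-09).

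The cytosolic ribosome is a separate particle with its own proteins, and its genes were mostly lower in both lines. Of 75 cytosolic ribosomal protein genes tested in C4-2, 53 fell (70.7%) and 2 rose (median log2 fold change -0.23). Of 78 in DU145, 46 fell (59%) and none rose (median -0.17). Over all genes 26.6% fell in C4-2 and 29.2% in DU145. RPL8 averaged 745 ± 21.7 CPM with palbociclib and 1004 ± 25.1 CPM with DMSO in C4-2, and RPS12 averaged 360.5 ± 27.3 CPM with palbociclib and 568 ± 32.5 CPM with DMSO in DU145. The complexes of the respiratory chain also hold the products of the mitochondrial ribosome. Of 69 nuclear-encoded respiratory chain genes tested in C4-2, 33 fell (47.8%) and 2 rose (median -0.21). In DU145 18 of 73 rose (24.7%) and 10 fell (13.7%), with a median of 0.06, against 28.8% higher and 29.2% lower of all genes. ATP5F1B, the catalytic subunit of ATP synthase, fell in C4-2 by 0.48 (adjusted p = 8.79e-15), and UQCR11, a subunit of complex III, rose in DU145 by 0.80 (adjusted p = 2.93e-06). Of 7 E2F and proliferation genes read as a check of the drug, all 7 fell in C4-2. MKI67 averaged 219 ± 9.92 CPM (palbociclib) and 813 ± 2.78 CPM (DMSO) there. In DU145 2 of the 7 rose and 2 fell (28.6% each, near the shares of all genes), with MKI67 averaging 552 ± 21.2 CPM (palbociclib) and 438 ± 6.48 CPM (DMSO). The differences between these lists were not tested.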

How the data were processed

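RNA was sequenced from libraries labelled as 2 prostate cancer lines with palbociclib or DMSO. The authors deposited raw counts, in 1 table for C4-2 and 1 for DU145. The C4-2 counts, per the file headers, came from featureCounts 2.0.1 with the Ensembl annotation 107 and no strand setting. The build was hg38, per the submitters' processing notes. How the DU145 reads were aligned and counted, and whether strand was used, is not given there or in the labels. Per the labels, the kit was directional. Gene lengths used for TPM are those the authors deposited in the DU145 table. Of 12 libraries 1 was empty, so 3 palbociclib libraries were set against 2 DMSO libraries in C4-2 and not the planned 3. Depth was 2608851 to 3489659 counts per library in C4-2 and 16108999 to 16674393 in DU145, which limits the precision of low genes in C4-2 most. Limits of a count of 0 (3 counts) cover counting error only.

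The tests used edgeR 4.0.16 (R 4.3.3): filterByExpr by group, TMM scaling and the quasi-likelihood F test, with Benjamini-Hochberg adjustment over all tested genes at 0.05. Each line was fitted alone, and a joint fit tested the interaction. SEs come from the coefficient and its F statistic. CPM used library totals. The fits were tested on simulated data. Alternatives were other scalings, DESeq2 1.42.0, other filters, a replicate block, leaving out libraries and leaving out mitochondrially encoded genes. Replicate numbers were compared by the correlation of deviations from group means: 0.114, 0.188 and 0.399 for the same-numbered DU145 pairs. Each was above 0.1, so the DU145 numbers may pair, but palbociclib 1 with DMSO 2 gave 0.201 and palbociclib 2 with DMSO 1 gave 0.089. Only the libraries numbered 3 stood apart, so numbers 1 and 2 could not be matched. The main fits used no pairing, and the replicate block was an alternative. The same-numbered pairs of C4-2 gave 0.002 and -0.011, so the numbers did not pair there. The chi-square per degree of freedom between libraries of a group was 1.14 to 1.18 in C4-2 and 2.36 to 8.34 in DU145, so none was counted as the same library deposited again.

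Members and lists were chosen with earlier results of these data known. Named genes were, in each line, the 6 called members with the largest rise and the 6 with the largest fall, the 5 highest and 3 lowest per length in DU145, the 5 largest interactions in each direction, 9 fixed members, untested members, and up to 4 called genes per list and line. Other members named were chosen after their values were seen.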

Additional observations from a re-analysis of the deposited data

Results flagged for a closer look

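The response to palbociclib differed between DU145 and C4-2, by the interaction of line and treatment in edgeR's quasi-likelihood test with Benjamini-Hochberg adjustment over all genes, for 36 members. The change was higher in DU145 for 34 and lower for 2. Among the genes named above, the interaction (DU145 minus C4-2, log2 scale) was 1.45 for MRPL14, 1.37 for MRPS18A, 1.13 for MRPL49, 1.12 for MRPL27, 1.05 for MRPL28, 1.04 for MRPS12 and 1.01 for MRPS30. It was 0.93 for MRPL44, 0.925 for MRPL12, 0.92 for MRPL50, 0.88 for MRPL39, 0.84 for MRPL51 and 0.71 for MRPS18C. Smaller values were 0.55 for MRPS26, 0.48 for MRPL37 and 0.32 for MRPL3. The members with a lower change in DU145 were MRPL1 with -1.08 and MRPL24 with -0.43.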

How the results depend on the processing

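Every called change of a named gene kept its direction under all alternatives run. Uncalled values near 0 changed sign in places, such as MRPS30 and MRPL44 in C4-2 with library totals (0.009 and 0.031). The count of members that rose in C4-2, 1 by edgeR, was 2 with library totals, 0 with DESeq2, 4 with the replicate block, 4 without both libraries numbered 3 and 0 to 4 when 1 library was left out. The 30 members that fell in C4-2 were 15 with DESeq2, which also called fewer genes over the whole table (1800.0 higher and 1993 lower, against 3011 and 3173). The median log2 fold change of the members in DU145, 0.175, was 0.151 with library totals, 0.151 with no filter, 0.208 without both libraries numbered 3 and 0.145 to 0.226 with 1 library left out. The 2 members with a lower change in DU145 were 4 with library totals and 1 to 3 with 1 library left out. Leaving out 1 DMSO library of C4-2 leaves 1, which is then assumed to vary like the palbociclib libraries. With the replicate block 52 members were called in DU145 (46 shared with the unblocked fit), 34 in C4-2 (29 shared) and 38 interactions (33 shared), and beside MRPS26 and MRPS36 it changed no call of a named member in DU145. The numbers did not pair the C4-2 libraries. The median of all genes shifted to 0.102 in C4-2 with no filter and to -0.116 in the interaction with library totals. Where a named call was lost, the cause was not tested. The low depth of C4-2 limits what can be said of members under about 10 CPM, and 4 members could not be tested there.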
